A study of Mus musculus with 2 samples.

Results

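Of the protein-coding promoters accessible to DNase I in adult mouse left cerebral cortex, a small minority lay in DNA that is not rich in G and C. These low-GC promoter peaks numbered 311 of 10791 shared promoter peaks in replicate 1 (2.88%) and 280 of 10679 in replicate 2 (2.62%), at 299 and 269 genes. A peak is an interval that the authors called as accessible in 1 library. A peak was taken as a member when it came from the stricter of the deposited lists, lay on an autosome, overlapped a peak of the other library by at least 1 bp, and had its midpoint within 500 bp of the 5′-most annotated start of a protein-coding gene. The 500 bp of reference sequence centred on its midpoint also had to hold at most 50% G and C. Peaks passing the same rule with over 60% G and C, 7440 and 7404 in the respective libraries, served as the comparison, and 3040 and 2995 lay between the limits. The rule used position, sequence and overlap, and did not use strength, width or footprints.

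The tissue came from male B6CASTF1/J mice of 8 to 10 months, first-generation hybrids of a laboratory strain and a castaneus strain, with no treatment. In DNase-seq, nuclei are treated with DNase I and the cut ends are sequenced. Both libraries, labelled biological replicates 1 and 2, formed 1 group and carried the same donor identifier, so they may come from 1 animal and their spread may be technical. With 2 libraries the exact two-sided sign-flip test cannot go below p = 0.5, so differences are given with their SD and no test. Bulk tissue does not separate fewer cells with an open site from less cutting per cell. Of 4 defining pan-neuronal genes checked, 3 had a shared promoter peak, as did 2 of 4 excitatory neuron genes. The few inhibitory, astrocyte, oligodendrocyte, microglial, endothelial, erythroid, liver and muscle genes checked had none. Longer lists differed, with such a peak at 7 of 20 excitatory, 3 of 20 inhibitory, 9 of 20 astrocyte and 5 of 20 oligodendrocyte genes. The counts were 3 of 20 for microglia, 4 of 18 for endothelium, 1 of 12 for erythroid, 0 of 19 for liver and 1 of 18 for muscle. The few genes checked thus do not settle which cell types were represented.

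Most mammalian promoters of widely expressed genes sit in CpG islands, stretches rich in G, C and the dinucleotide CG that usually stay free of DNA methylation and open. Promoters outside islands are more often tied to particular tissues or signals, and some carry a TATA box a short way before the start, where the TATA-binding protein sets the position of RNA polymerase II. Genes for transfer RNA (tRNA) are instead transcribed by RNA polymerase III from control elements called the A and B boxes inside the gene.

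The strongest low-GC peaks that could be printed are shown first, since their strength, footprints and motifs recur below. Each is read 5′ to 3′ along the coding gene from the GRCm38 (mm10) reference and shows the bases of the replicate 1 peak that lie before the gene's 5′-most start. Capitals mark bases inside footprints of both libraries, footprints being short protected stretches that the authors called inside accessible DNA.
Knl1, chr2:119046721-119046960, + strand: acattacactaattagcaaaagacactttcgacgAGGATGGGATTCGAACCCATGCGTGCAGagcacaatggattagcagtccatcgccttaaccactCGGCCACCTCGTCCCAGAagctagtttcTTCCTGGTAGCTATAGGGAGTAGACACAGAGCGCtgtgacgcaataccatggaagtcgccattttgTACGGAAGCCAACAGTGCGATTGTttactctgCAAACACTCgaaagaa
Mettl26, chr17:25874961-25875073, + strand: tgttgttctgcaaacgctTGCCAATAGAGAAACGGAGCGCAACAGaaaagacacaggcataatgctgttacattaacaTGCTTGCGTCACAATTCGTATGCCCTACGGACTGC
Tia1, chr6:86403841-86404000, + strand: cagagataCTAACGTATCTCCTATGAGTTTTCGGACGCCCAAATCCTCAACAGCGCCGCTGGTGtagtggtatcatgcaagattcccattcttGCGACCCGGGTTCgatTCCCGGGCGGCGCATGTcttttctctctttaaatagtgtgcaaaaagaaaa
Timm22, chr11:76406721-76406940, + strand: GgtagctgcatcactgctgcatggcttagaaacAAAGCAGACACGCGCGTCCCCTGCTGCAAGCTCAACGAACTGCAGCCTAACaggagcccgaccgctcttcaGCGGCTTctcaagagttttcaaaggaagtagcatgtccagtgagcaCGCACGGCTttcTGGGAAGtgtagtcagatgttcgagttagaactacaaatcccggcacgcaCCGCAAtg
Klhl20, chr1:161131512-161131620, - strand: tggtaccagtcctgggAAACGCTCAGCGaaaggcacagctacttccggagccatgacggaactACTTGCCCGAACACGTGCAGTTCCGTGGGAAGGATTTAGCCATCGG
Eif3f, chr7:108934141-108934360, + strand: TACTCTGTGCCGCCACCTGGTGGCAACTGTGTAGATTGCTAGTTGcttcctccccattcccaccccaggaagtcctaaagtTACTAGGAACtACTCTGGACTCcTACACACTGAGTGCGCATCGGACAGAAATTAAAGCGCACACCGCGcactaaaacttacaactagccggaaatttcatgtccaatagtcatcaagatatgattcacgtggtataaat
Hist4h4, chr6:136804416-136804560, - strand: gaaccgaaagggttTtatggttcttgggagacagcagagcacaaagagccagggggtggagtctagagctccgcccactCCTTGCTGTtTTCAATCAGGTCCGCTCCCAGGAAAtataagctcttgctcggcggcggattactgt
Hist2h2bb, chr3:96269541-96269700, + strand: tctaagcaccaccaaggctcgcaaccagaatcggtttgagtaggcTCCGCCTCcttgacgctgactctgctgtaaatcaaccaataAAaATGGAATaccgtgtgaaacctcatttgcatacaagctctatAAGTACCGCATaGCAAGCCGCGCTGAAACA
H2-M3, chr17:37270141-37270219, + strand: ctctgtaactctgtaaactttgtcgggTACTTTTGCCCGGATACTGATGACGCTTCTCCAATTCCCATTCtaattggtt
Within the Knl1 sequence a serine tRNA gene, on the opposite strand to Knl1, occupies bases 30 to 111, counted from 1 at the left, and 41 of its 82 bases are in capitals. The Tia1 sequence holds a glycine tRNA gene on the same strand as Tia1 at bases 53 to 123, with 39 of 71 bases in capitals. The core of the tRNA B box, searched as GTTCGANTC on both strands, lies at bases 42 to 50 of Knl1, all 9 of them in footprints, and at bases 103 to 111 of Tia1, 6 of them in footprints. In Klhl20 a CACGTG E-box, the site of USF and MYC family factors, lies at bases 75 to 80, wholly in footprints. Eif3f has the NRF1 core TGCGCA at bases 116 to 121, also wholly in footprints, while its own CACGTG at bases 207 to 212 lies outside them. The CCAAT word bound by NF-Y lies in footprints at bases 58 to 62 of H2-M3 and 21 to 25 of Mettl26, and outside them at bases 81 to 85 of Hist2h2bb and at a second site in H2-M3, bases 73 to 77. Hist2h2bb also has the octamer ATGCAAAT at bases 112 to 119, and none of those bases is in a footprint of both libraries.

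Low-GC promoters were accessible far less often than GC-rich ones. Of 20807 autosomal protein-coding starts, 5747 (27.6%) had at most 50% G and C in the 500 bp around the start, and 389 of these (6.77%, Wilson 95% interval 6.15 to 7.45) had a shared promoter peak. That share was 40.96% of the 6521 starts between the limits and 70.2% of the 8539 starts over 60%. A low-GC peak in each of the libraries was present at 230 genes, 1.11% of all tested, against 43.5% with any shared promoter peak. The share of starts with a peak was 0.683% at 30 to 35% G and C, 4.76% at 40 to 45%, 12% at 45 to 50% and 29.3% at 50 to 55%. With limits of 45% and 65% the share at low-GC starts was 2.81%, and with midpoints within 250 bp of the start 4.09%. The share was 67.3% at 60 to 65% and 73.4% at 65 to 70%, with no further gain at 70 to 75% (72.0%). All intervals here and below cover counting error only. With the broader list of peaks, which admits weaker sites, the share at low-GC starts was 9.48%, and at starts over 60% it was 77.4%. Olfactory receptor genes, which serve the nose, made up 1094 of the low-GC starts and none of the 1128 had a shared peak. With olfactory and vomeronasal receptor genes left out, an alternative chosen after seeing the data, the share at low-GC starts was 8.98%.

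**Figure D1:**
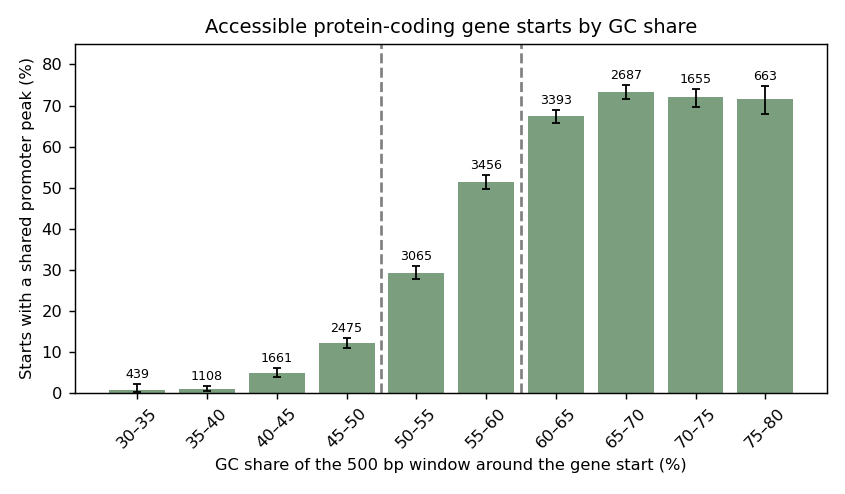
Share of autosomal protein-coding gene starts with a shared promoter peak (vertical axis, %) by the GC share of the 500 bp around the start (horizontal axis, %). Bars are shares, error bars Wilson 95% intervals, numbers the starts in each bin, and dashed lines mark 50% and 60%; the share goes from 0.683% in the lowest bin to 73.4% at 65 to 70%.

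Low-GC promoter peaks were weaker and narrower than GC-rich ones. Their class follows GC at the peak midpoint, which can differ from GC at the gene's start. In replicates 1 and 2, 194 of 311 and 177 of 280 members belonged to genes with at most 50% G and C around the start. Another 96 and 87 belonged to starts between the limits, and 21 and 16 to starts over 60%. Of the 389 low-GC starts with a shared peak, 156 had a low-GC peak in both libraries. Strength, the signal value deposited with each peak, had a median of 1.47 in replicate 1 and 1.36 in replicate 2 for low-GC members. Peaks over 60% had medians of 2.45 and 2.18. The log2 ratio of low to high medians was -0.74 and -0.68, or -0.71 ± 0.05 (SD, n = 2 libraries), a spread that may be technical. The classes overlapped widely, since the upper quartile of the low-GC members, 2.35 and 2.09, lay above the lower quartile of the high-GC peaks, 1.43 and 1.41. Median width was 207 and 220 bp against 280 and 300 bp, a difference of -76.5 ± 4.95 bp. The size of these gaps moved with the rules: the log2 ratio was -0.35 among peaks above the list's median strength and -1.23 with the broader list, and the width difference was -20 bp with GC measured over 100 bp on each side. Strength did not go up steadily with GC. Its median was 1.15 and 1.23 at or under 45%, 1.52 and 1.37 at 45 to 50%, highest at 60 to 65% (2.92 and 2.47), and lower again over 70% (1.76 and 1.66).

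**Figure D2:**
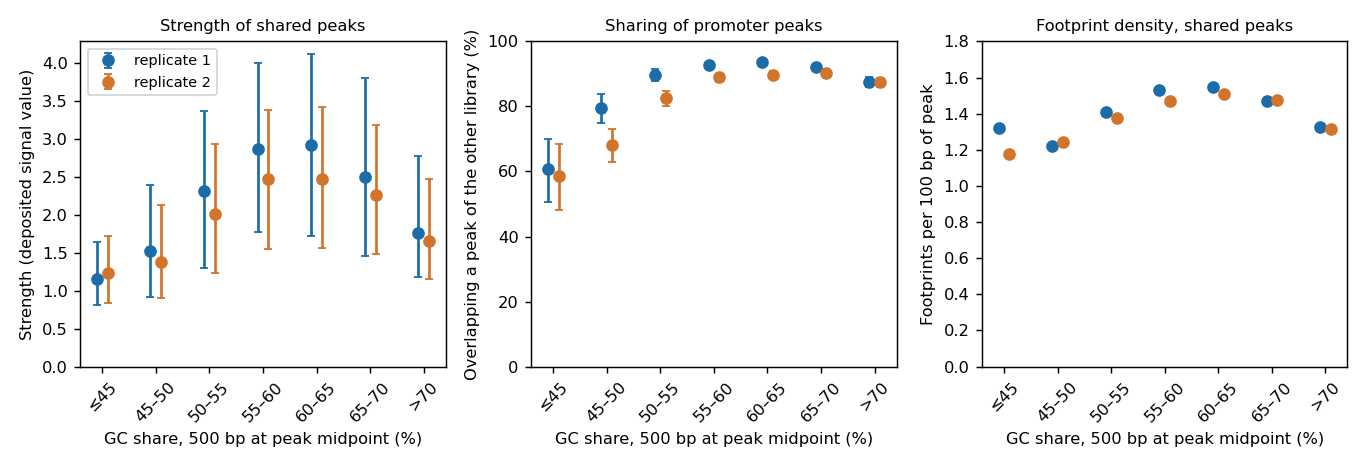
Promoter peaks by the GC share of the 500 bp at their midpoint (horizontal axes, %): left, strength of shared peaks as median with quartiles; middle, percent of promoter peaks that overlap a peak of the other library, with Wilson 95% intervals; right, footprints per 100 bp of shared peak. In both libraries strength is greatest at 60 to 65% GC (medians 2.92 and 2.47) and least at or under 45% (1.15 and 1.23).

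Accessible DNA also fell off faster upstream of low-GC midpoints. The authors' table of false discovery rates (FDR) marks short intervals of cutting above background. Of the 500 bp around each midpoint, 67.0% and 70.6% of bases were at an FDR of 0.001 or less in low-GC members, against 88.1% and 89.2% in high-GC peaks. Over 2000 bp the shares were 30.8% and 33.3% against 41.2% and 43.1%. From 400 to 350 bp upstream of the midpoint the low-GC share was 15.7% and 17.6%, and from 350 to 400 bp downstream, inside the gene, it was 38.9% and 40.7%. In high-GC peaks the same positions had 39.8% and 42.7% upstream and 48.9% and 52.2% downstream. The low-GC profile is lopsided toward the gene. At the far ends of the 2000 bp the low-GC share was above that of high-GC peaks on both sides. From 950 to 1000 bp downstream it was 10.9% and 13.01% against 9.78% and 11.7%. From 1000 to 950 bp upstream it was 7.14% and 7.06% against 5.54% and 5.68%.

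**Figure D3:**
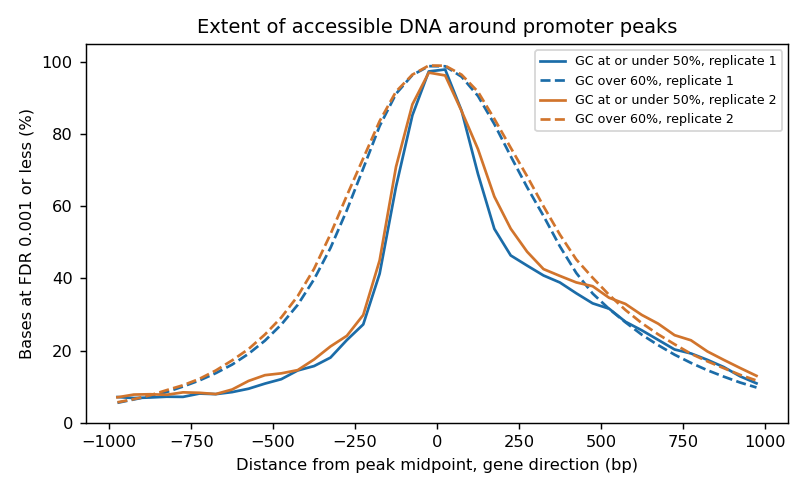
Share of bases at an FDR of 0.001 or less (vertical axis, %) by distance from the peak midpoint in the direction of the gene (horizontal axis, bp, 50 bp bins), for low-GC members (solid) and peaks over 60% GC (dashed) in replicates 1 and 2. The solid lines drop fastest on the upstream side, to 15.7% and 17.6% at 400 to 350 bp before the midpoint against 38.9% and 40.7% at the same distance after it.

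The members were also less tightly placed at the annotated start. Midpoints lay within 100 bp of it in 43.7% and 41.8% of members and in 54.0% and 51.6% of high-GC peaks. The median distance was 129 and 141 bp, against 89 and 96 bp. Members lay upstream of the start in 61.7% and 60% of cases, and high-GC peaks in 52.2% and 49.6%. Another promoter peak of the same gene in the same library, shared or not, was present for 115 and 114 members, 37.0% and 40.7%. It was stronger than the member in 67 and 65 of these cases. High-GC peaks had another peak in 34.9% and 35.5% of cases. Members that were the gene's only promoter peak (196 and 166) had a median strength of 1.54 and 1.39, against 1.16 and 1.24 for those with a companion. Their median distance from the start was 83.5 and 79 bp against 266 and 242.5 bp. The only peaks of a gene thus sat nearer its start and were stronger than members with a companion.

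By their sequence the members were poor in CG as well as in G and C. Their median GC share was 47.8% in both libraries, with a minimum of 34.4%. The median number of CG dinucleotides in the 500 bp was 14, against 46 in high-GC peaks. Even after allowing for base composition, CG occurred at 0.5005 and 0.4968 of the expected number, against 0.847 and 0.845. A ratio over 0.6, a usual limit for CpG islands, was reached by 36.0% and 35.0% of members and by 94.99% and 94.8% of high-GC peaks. The median share of repeat bases was 8.6% and 9% against 4.4%. The genes with low-GC peaks were shorter, with medians of 24.6 and 23.4 kb against 32.5 and 33.0 kb, though not than those between the limits (20.04 and 19.99 kb). Divergent coding neighbours within 1000 bp were about as common, at 8.68% and 8.21% against 7.31% and 7.32%.

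Low-GC members held fewer footprints. They had 2.79 and 3.01 footprints per peak, against 4.46 and 4.84 in high-GC peaks, a difference of -1.75 ± 0.118 (SD, n = 2), or -0.704 with GC measured over 100 bp on each side. Part of that difference goes with width, as per 100 bp the densities were 1.24 and 1.23 against 1.46 and 1.45. No footprint was called in 13.2% and 12.9% of members and in 7.23% and 6.42% of high-GC peaks. At matched strength over 0.75 members still had fewer footprints per peak. The means were 4.33 and 4.81 against 5.55 and 5.97 over a strength of 3. They were 3.37 and 3.86 against 4.78 and 5.34 between 1.5 and 3, and 2.36 and 2.39 against 2.84 and 3.28 between 0.75 and 1.5. At matched strength the gap in density per 100 bp was small, or turned round in weaker peaks. Among peaks of strength over 3, it was 1.81 and 1.83 per 100 bp in low-GC members and 1.90 and 1.93 in high-GC peaks. Between 1.5 and 3 it was 1.38 and 1.46 against 1.46 and 1.503. In the weakest bin, up to 0.75, low-GC members had the denser footprints, 0.758 and 0.892 against 0.522 and 0.560. They also had more of them per peak there, 1.32 and 1.57 against 0.975 and 1.21. That bin held 53 and 46 members. Footprints averaged 13.2 bp in members of both libraries and 12.8 and 12.7 bp in high-GC peaks.

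Before overlap was required, low-GC promoter peaks were found again in the other library less often. In replicate 1, 311 of 413 overlapped a peak of replicate 2 (75.3%), against 91.6% of high-GC promoter peaks. In replicate 2, 280 of 423 did so (66.2%), against 89.4%. Among stronger peaks the classes were closer. Between 0.75 and 1.5 the shares were 81.1% and 73.5% against 81.6% and 78.6%. Between 1.5 and 3 the shares were 94.9% and 93.8% against 97.5% and 98.1%, and over 3 they were 97.5% and 100% against 99.7% and 99.9%. Below 0.75 a gap remained, with 43.1% and 32.2% against 61.1% and 49.4%. Of the low-GC peaks without a stricter partner, 47 of 102 and 56 of 143 overlapped a peak of the other library's broader list. These shares, 46.1% and 39.2%, compare with 48.97% and 46.9% for high-GC peaks.

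The strength of members present in both libraries was close in most pairs, with a wider spread than in high-GC pairs. In 236 pairs both overlapping peaks were low-GC, and in 51 further pairs the replicate 2 peak, whose midpoint differed, had over 50% to 60%. The log2 ratio of replicate 2 to replicate 1 had a median of -0.06 and an SD of 0.36 over the 236 pairs, against an SD of 0.27 over 6477 high-GC pairs. Pearson's r of log2 strength across pairs was 0.917, and 0.955 for the high-GC pairs. The peaks are not independent replicates, and both libraries were mapped to the same reference. A difference over 2-fold occurred in 2 of the low-GC pairs (0.847%) and in 4 of the high-GC pairs (0.0618%). At Tnfaip6, which encodes a hyaluronan-binding protein of inflammation, strength was 0.540 in replicate 1 and 1.24 in replicate 2. At Gm17482 it was 2.14 and 1.01. The next largest differences were at Gm10717 (0.502 and 0.963), Cfap65 (0.986 and 1.82) and Mettl26 (6.33 and 11.4) toward replicate 2. Toward replicate 1 they were at Gm14322 (1.48 and 0.778), Glipr1l1 (1.69 and 0.889) and Ifi44l (0.512 and 0.278).

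**Figure D4:**
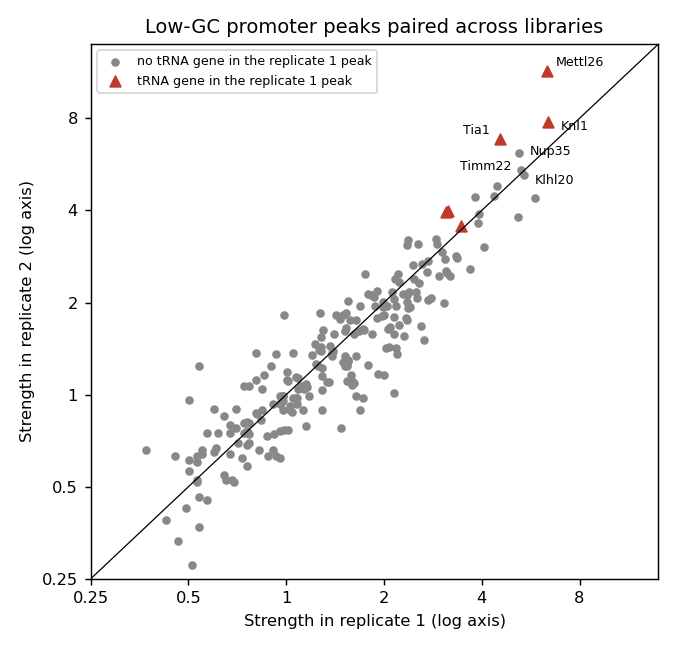
Strength in replicate 1 (horizontal, log axis) against replicate 2 (vertical, log axis) for the 234 low-GC pairs assigned to the same gene; each point is a pair, the line marks equality, and triangles are pairs whose replicate 1 peak holds a tRNA gene. Mettl26 (6.33 and 11.4) and Knl1 (6.40 and 7.76), the topmost triangles, are the strongest pairs.

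The strongest low-GC peaks included several that cover a tRNA gene beside the coding start. Of 386 autosomal tRNA genes annotated by RefSeq, overlap was counted with each class of peak. A tRNA gene was present in 6 of 311 and 10 of 280 members (1.93% and 3.57%, Wilson 95% intervals 0.887 to 4.14 and 1.95 to 6.45). In high-GC peaks it was 3 of 7440 and 3 of 7404 (0.040% and 0.041%), and between the limits 14 of 3040 and 10 of 2995. The tRNA comparison was added after the strongest peaks had been seen. Members with a tRNA gene had a median strength of 4.00 and 3.96, against 1.42 and 1.33 for the others. They made up 2 and 4 of the 10 strongest members.

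At Knl1, which encodes a scaffold of the kinetochore, the strength was 6.40 in replicate 1 and 7.76 in replicate 2, with the midpoint at -278 bp (negative positions lie upstream of the start). At Mettl26 the values were 6.33 and 11.4, with the midpoint at -3 bp, and a glycine tRNA gene at chr17:25875088-25875158 began just after the coding start. At Tia1, whose product is an RNA-binding protein of stress granules, they were 4.56 and 6.83, at -298 bp. All 3 were higher in replicate 2 and ranked among the 8 strongest of 234 pairs in each library. Agbl5 (alanine tRNA, 3.45 and 3.56), B4gat1 (serine, 3.16 and 3.98) and Rnase4 (proline, 3.11 and 3.94) also held a tRNA gene in both libraries. Plekhg2, Rab11a, Fmc1 and Lta4h did so among replicate 2 members only, at strengths from 3.14 to 4.81. A few members instead covered small RNA genes. The Poldip3 peak, 2.11 and 2.17, held Rnu12, the U12 RNA of the minor spliceosome. The Tti2 peak, 1.59 and 1.07, held Snord13, and the Zfp27 peak, 1.05 and 1.37, held Mir7668. Small RNA genes other than tRNA were present in 3 members of each library (0.965% and 1.07%) and in 39 and 47 high-GC peaks (0.524% and 0.635%). Whether polymerase II or III promoters give these peaks their strength was not tested.

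The other leading members had no tRNA gene in their peaks. Timm22, the channel of a mitochondrial inner membrane translocase, had a strength of 5.28 in replicate 1 and 5.43 in replicate 2. Klhl20, an adaptor of a ubiquitin ligase, had 5.40 and 5.24 with its midpoint at -10 bp. Nup35, a nuclear pore protein, had 5.21 and 6.17, and 5 footprints in each library. These 3 genes were among the 6 strongest pairs in each library, and their values stayed close between the libraries, with the largest log2 ratio, 0.24, at Nup35. Eif3f, a subunit of translation initiation factor 3, had 5.85 and 4.38. Evi5l, a relative of the Rab GTPase-activating protein Evi5, had 5.16 and 3.81. H2-M3, a nonclassical MHC class I molecule that presents formylated peptides, had 3.93 and 3.89. Nme5, of the nucleoside diphosphate kinase family, had 3.82 and 4.42.

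Histone genes, most of which lie in clusters and encode the proteins that DNA wraps around, held a low-GC peak in both libraries at 5 of 67 genes (7.46%, against 1.11% of all genes). Hist4h4 had strengths of 4.46 in replicate 1 and 4.81 in replicate 2, and Hist2h2bb 4.36 and 4.46. Hist1h3b had 3.02 and 2.93, and Hist1h3c 2.22 and 2.34. Hist1h2be had 1.64 and 1.76. The first 4 lay above the upper quartile of the members in both libraries, apart from Hist1h3c in replicate 1, and the values of a gene were close between libraries. Near-identical histone copies may share reads, and how such reads were treated is not given in the sources used here. Zinc finger genes named Zfp had a low-GC peak at 13 of 385 (3.38%), led by Zfp672 (3.35 and 2.81), Zfp952 (2.95 and 2.44), Zfp260 (2.71 and 2.52) and Zfp874a (2.14 and 2.06).

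Among genes of protein synthesis and energy supply, low-GC peaks occurred at 1.28% to 4.30% of 3 lists, against 1.11% of all genes. Cytosolic ribosomal protein genes had them at 4 of 93 (4.30%): Rpl7 (2.53 and 2.07), Rps26 (2.19 and 1.36), Rpl7l1 (1.36 and 1.44) and Rpl32 (1.15 and 1.08). Of these, Rpl7l1 and Rpl32 had their midpoints over 300 bp upstream of the start. The mitochondrial ribosomal list had 1 of 78, Mrpl24 (1.72 and 1.64). Oxidative phosphorylation subunits had 2 of 87, both of ATP synthase, Atp5l (2.39 and 2.17) and Atp5a1 (1.52 and 1.61). In each of these lists at least 70.1% of genes had some shared promoter peak. The 39 proteasome subunit genes had no low-GC peak, nor had the 17 housekeeping and 19 clock genes listed. Such empty counts are near what the 1.11% of all genes would give on lists of this size.

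Neuronal genes were represented by weak members. Neurod6, a transcription factor of cortical excitatory neurons, had 1.00 and 1.12 and held the full cAMP response element TGACGTCA. It was the 1 of 20 excitatory neuron genes on its list. No inhibitory neuron gene (0 of 20), neuropeptide precursor (0 of 22) or activity-regulated gene (0 of 25) had a low-GC peak in both libraries, counts near what the 1.11% of all genes would give on lists of this size. Of the 25 activity-regulated genes, 18 had a shared promoter peak. Scn2a, a voltage-gated sodium channel gene of excitatory neurons, had 0.919 and 0.741 and was among the 5 members lowest in GC, at 34.4% and 37.0%. Slc8a1, the sodium-calcium exchanger, had 1.02 and 0.917 yet 6 footprints in each library. All of these lay under the members' median strength in both libraries.

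The astrocyte and microglial genes found also lay under the members' median strength in both libraries. Fabp7, a fatty acid binding protein of astrocytes and radial glia, had 1.14 and 1.05, and Mlc1, a membrane protein of astrocyte endfeet, 0.531 and 0.602. Together they were 2 of 20 astrocyte genes (10%, against 1.11% of all genes). Cd68, a lysosomal protein of microglia and macrophages, had 1.04 and 0.880 as the 1 of 20 microglial genes. The oligodendrocyte (20 genes), endothelial (18), pericyte (13), lymphocyte (22), erythroid (12) and liver (19) lists had no gene with a low-GC peak in both libraries. These counts are near what the 1.11% of all genes would give on lists of this size. Among 77 interleukin and receptor genes, Il6 had 1.52 and 1.33 and Il33 0.910 and 0.935. Solute carriers had 5 of 358 (1.40%), among them Slc9a9 (1.00 and 1.19) and Slc9a4 (0.597 and 0.898). Of 100 cytochrome P450 genes 1 (1%), Cyp2j9, had a low-GC peak, at 0.701 and 0.778. Both shares are near the 1.11% of all genes. The muscle list gave Mylpf, the fast skeletal myosin light chain, with a pair of peaks at 3.34 and 2.84 and at 2.66 and 1.51. A divergent coding start lies within 1000 bp of the Mylpf start, so which of the neighbours these peaks belong to cannot be told apart.

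At the lower ends of GC and strength, some members lay in repeats. Gm10718 (34.8% and 34.4% GC) and Gm10717 (34.6% and 34.8%) had 98.4% and 99.2% of their windows in repeats and lay near the start of the assembled chromosome 9. Their strengths were 0.370 and 0.657, and 0.502 and 0.963. Mttp, which loads lipid onto lipoproteins, had 35.0% GC with 8.80% repeats and a strength of 1.54 and 1.26, near the members' median. Smim18 had 38.2% and 38.0% GC and 0.872 and 0.731. Repeats over 50% of the window occurred in 1.29% and 1.43% of members. The weakest pairs also included Agmo (0.464 and 0.333) and both peaks of Ndst4, a heparan sulfate sulfotransferase gene, at 0.455 and 0.630 and at 0.426 and 0.389. The peak richest in footprints was at Atp6v1a, the catalytic subunit of the vacuolar proton pump, with 21 footprints over 1060 bp in replicate 1 and 10 over 560 bp in replicate 2. Nbr1, an autophagy receptor gene, had 7 and 10 footprints and a strength of 3.90 and 3.64. E430018J23Rik had 6 footprints in each library and Zfp952 had 6 and 7.

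Membership turned on small differences of GC at the limit. A limit of 45% left 54 members as the mean of the libraries, against 295.5; the broader list gave 505, and starts of any transcript 566.5. Exactly 50% was reached by 20 and 13 members, and 78 and 69 lay over 49%, while 104 and 113 peaks fell just outside, over 50% to 51%. Just inside in replicate 1 were Zfp773 (0.929), Zkscan2 (0.550) and Zmat2 (4.64), and just outside, at 50.2%, D130040H23Rik (1.51), Ech1 (2.57) and Gabarap (3.56). In replicate 2 Plekhg2 (4.81), Zfp260 (2.52) and Zfp58 (1.76) lay inside, and Arl5b (2.52), C2cd4b (1.95) and Cenpa (1.55) outside.

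Genes with a low-GC peak, and low-GC starts with a shared peak, almost never had the exact word TATAAA in the standard place of a TATA box before the 5′-most start. Variants of the word were left out of this count, and the TATA box share given below is the share with this word. TATAAA was sought on the gene's strand, lying wholly 20 to 40 bp before the 5′-most start. That start was used wherever the peak lay, and 33.4% and 32.1% of members had their midpoint over 250 bp from it. TATAAA was found at none of 311 members in replicate 1, which allows a share of up to 0.965%. In replicate 2 it was found at 1 of 280, the chemokine receptor gene Cxcr4, with a strength of 0.556. High-GC peaks had it in 0.605% and 0.540%. Counted over starts, it was present at 1 of 389 low-GC starts with a shared peak (0.257%, 0.045 to 1.44) and at 263 of 5358 without (4.91%, 4.36 to 5.52). Between 45 and 50% GC, where both sets had nearly the same GC share (medians 48.4% and 47.8%), the counts were 1 of 297 and 116 of 2178 (0.337% and 5.33%). In members, the order against high-GC peaks turned when any annotated start of the gene was allowed, to 2.57% and 2.5% against 2.11% and 2.08%. The members' Wilson intervals there were 1.31 to 4.99 and 1.22 to 5.07. At the 5′-most start they were 0 to 1.22 and 0.063 to 1.99. All of them hold the high-GC share, so neither order exceeds counting error. Over low-GC starts, with any annotated start allowed, the share was 2.06% with a peak and 6.87% without. Anywhere in the 500 bp and on either strand, the letters TATAAA occurred in 20.6% and 21.4% of members and in 4.56% and 4.24% of high-GC peaks. Around starts of 45 to 50% GC they occurred in 19.9% of windows with a peak and 27.0% of those without.

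Words of other factor sites differed in frequency between low-GC starts with and without a peak. The 21 words listed for the search were sought on both strands in the 500 bp around starts of 45 to 50% GC, where 297 had a shared peak and 2178 had none. GGGCGG, bound by SP and KLF factors, was present in 36.4% of those with a peak (31.1 to 42.0) and 11.4% of those without (10.1 to 12.8). It occurred in 53.5% of all coding start windows. TGACGTCA, the cAMP response element bound by CREB and ATF factors, was present in 5.39% (3.34 to 8.57) and 0.964% (0.632 to 1.47), against 2.73% of all starts. CCGGAAG, an ETS factor site, stood at 14.1% and 3.90%, and in 14.8% of all starts. The NRF1 core TGCGCA was in 9.76% and 3.44%, and 12.7% of all. AAGATGGCG, bound by YY1, was in 2.69% and 0.643%, and 2.86% of all. The octamer ATGCAAAT, bound by POU factors, was in 6.40% and 2.30%, and 1.97% of all. The CACGTG E-box was in 11.1% (8.02 to 15.2) and 6.11% (5.18 to 7.19), and 10.51% of all. These 7 words had intervals that did not overlap and were more frequent with a peak. The octamer was the 1 of them rarer at high-GC peaks, in 0.927% and 0.945% of their windows against 6.75% and 6.79% of the members' windows. GGGCGG was in 89.1% and 88.99% of high-GC windows and in 26.0% and 23.2% of the members'. Of these 7 words, all but the octamer contain the dinucleotide CG. Starts with and without a peak were alike in GC share but were not matched for CG content, whose part in these differences was not tested.

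For 4 words the intervals lay apart in the other direction, and for the remaining 10 they overlapped. TGTGGT, a RUNX site, was in 22.6% of low-GC starts with a peak (18.2 to 27.6) and 35.7% of those without (33.7 to 37.8). AGGTCA, a nuclear receptor site, was in 22.6% (18.2 to 27.6) and 32.0% (30.1 to 33.99). In all starts these were 23.3% and 22.2%. GAGGAAGT, a PU.1 site, was in 2.69% and 6.24%, and the fourth was TATAAA, given above. None of these 4 words contains the dinucleotide CG. CCAAT was in 51.9% (46.2 to 57.5) and 54.3% (52.2 to 56.4), intervals that overlap. ACTACAA, the core of the ZNF143 site and 1 of 2 words added after seeing the data, was in 9.09% (6.32 to 12.9) and 5.97% (5.05 to 7.04), and lies at bases 193 to 199 of the Timm22 sequence. The added B box word was in 1.29% and 2.50% of the members' peaks and in 0.323% and 0.270% of high-GC peaks. A match is a stretch of letters and does not show a bound factor. Words can overlap: CCAAT and TTGGC, the core of the NFI site on the other strand, share bases in the Mettl26 sequence.

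**Figure D5:**
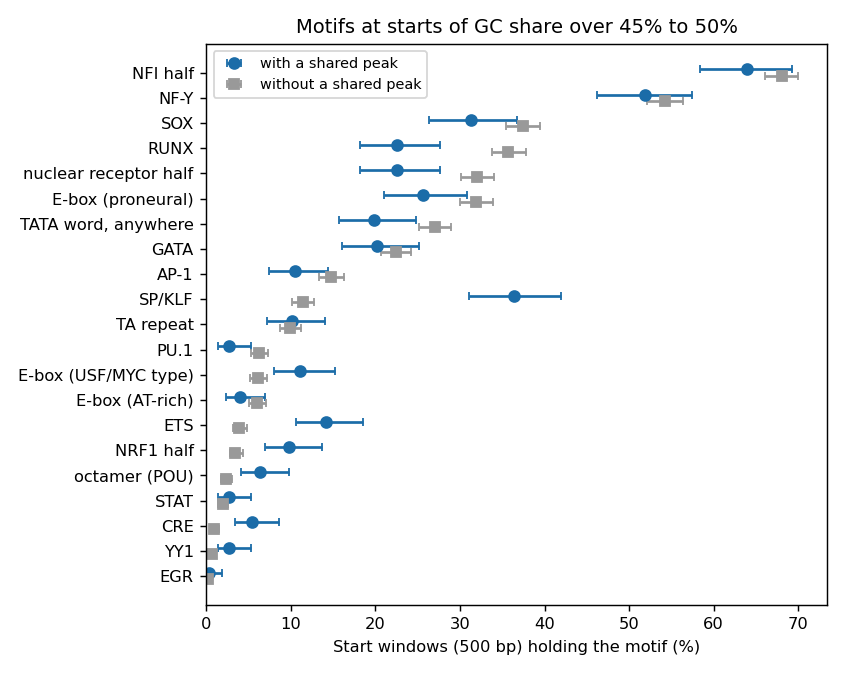
Share of 500 bp start windows that hold each searched word (horizontal axis, %) at protein-coding starts of over 45% to 50% GC, with a shared promoter peak (circles, 297 starts) or without (squares, 2178 starts); bars are Wilson 95% intervals. The SP/KLF word stands furthest apart, at 36.4% and 11.4%, and the RUNX and nuclear receptor words lie to the left with a peak.

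Within the members' peaks, some words coincided with footprints and others did not. A match was counted in a footprint when its middle base lay in one. All 9 matches of TGACGTCA in replicate 1 and all 7 in replicate 2 lay in a footprint, and in high-GC peaks 76.7% of 309 and 80.8% of 313 did. For GGGCGG it was 35 of 70 and 32 of 61 matches (50% and 52.5%), against 42.6% and 40.7% in high-GC peaks. TGCGCA matches lay in footprints in 8 of 14 and 6 of 9 cases. CCAAT matches did so in 21.6% and 19.1% of 176 and 173 cases, and TATAAA matches in 2 of 25 and 2 of 32. CACGTG matches did so in 2 of 22 and 3 of 17. Footprints covered 16.3% of the members' bases in both libraries. The TGACGTCA and GGGCGG shares lie well above that base share, and the CCAAT shares lie nearer it.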

How the data were processed

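DNase-seq of 1 tissue was read from 2 libraries. Per the notes deposited with the files, the authors called peaks and a table of false discovery rates on each library's own alignments to mm10, and derived footprints from both. Which caller and aligner were used is not given in the sources used here. The authors' peak strength is a deposited signal value whose normalization is not given, so it was compared within a library, and between libraries only for the same peak. The deposited FDR values, a kind of q-value, list only intervals under 0.05. The footprints' deposited value column is constant at 0.01 and was not used. Read totals were not used, so depth is unknown.

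The stricter list of each library (40705 and 39508 peaks, 39570 and 38360 on autosomes) was used. Genome and starts came from GRCm38.p6 with GENCODE M21, tRNA genes from RefSeq. A peak's partner shares most bases with it. A footprint was counted in the peak that holds its midpoint. Medians per library are given, with the SD over both. Shares carry Wilson 95% intervals. A count of 0 allows a share of up to 3 counts of the total. Analyses ran in python 3.11.15 with numpy 2.4.6, pandas 2.3.3 and scipy 1.17.1. Overlap, distance and motif functions were tested on simulated data.

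Members, 33 gene lists and words were chosen with earlier results of these data known. The genes named are the 12 strongest pairs by the worse of both ranks, the 5 lowest in GC, the 5 richest in footprints, the 4 that differ most between libraries in each direction, 3 on either side of the GC limit and up to 4 per list; the 6 strongest with a TATA box were sought, and no pair had one. The weakest pairs, the tRNA and small RNA members and Cxcr4 were named after their values were seen. Alternatives covered the GC limits and window, the distance, the start set, overlap, list, joining, means and each library alone. Printed sequences stop at the gene's start, and those lying in coding transcripts' exons or on chromosome 18 were left out. A few list members and 1 sequence are not reported here.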

Additional observations from a re-analysis of the deposited data

How the results depend on the processing

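Among the alternatives tried, no difference in strength, width, footprints or sharing changed direction. The order of the TATA box share against high-GC peaks did change, within counting error. That share was 0% and 0.357% against 0.605% and 0.540% at the 5′-most start, and 2.57% and 2.5% against 2.11% and 2.08% at any annotated start. As means over both libraries, the values were 295.5 members, a log2 strength ratio of low to high of -0.71, a width difference of -76.5 bp, -1.75 footprints per peak, a TATA box share of 0.179%, a sharing difference of -19.8 percentage points, and 6.77% of low-GC starts with a shared peak. Limits of 45% and 65% gave 54 members, -0.81, -114 bp, -2.31 footprints, -30.05 points and 2.81% of starts. GC over 100 bp on each side gave -0.56, -20 bp, -0.704 footprints and 8.27% of starts. A distance of 250 bp gave -0.80, -69.25 bp, -13.2 points and 4.09% of starts. Starts of any transcript gave 566.5 members, -0.81 and -87.25 bp. Overlap of at least 50% of each peak gave -63.25 bp. Peaks above the list's median strength gave 158 members, -0.35, -60 bp and -1.59 footprints. Joining peaks within 200 bp gave -0.78 and -90 bp. The broader list gave 505 members, -1.23, -70 bp, -2.17 footprints, a TATA box share of 0.595% and 9.48% of starts. Means in place of medians gave -0.57 and -84.4 bp. The TATA box share was 1.05% with TATATA allowed, 21.004% anywhere in the window, and 2.54% before any annotated start. The last, like leaving out receptor genes (8.98% of starts), tRNA gene peaks (-0.75) and repeats (291.5 members), was chosen after seeing the data. With each library alone the ranges were 280 to 311 members, -0.74 to -0.68, -80 to -73 bp, -1.83 to -1.67 footprints, 0 to 0.357%, -23.2 to -16.3 points and 8.04% to 8.39% of starts, the last counting all promoter peaks of 1 library. The cause of these shifts was not tested, apart from the fewer or more peaks that a stricter or looser rule admits. No paired analysis was possible because the libraries form 1 group.

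Strength has no stated normalization, and depth and mapping bias by GC could not be measured without reads, so the part of sequencing or alignment in the weaker low-GC peaks was not tested. The animals are hybrids, and GC and words were read from the reference, not from both alleles. Words were matched exactly, so sites that vary from them were not counted.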
